A study of Caenorhabditis elegans with 2 samples.

Results

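The cytosolic chaperonin CCT, also called TRiC, is encoded in Caenorhabditis elegans by 8 genes, cct-1 to cct-8, out of 19973 protein-coding genes in the annotation. They were taken by name, 1 gene for each subunit, and all 8 were found. For each of them, every region recovered by chromatin immunoprecipitation with sequencing (ChIP-seq) with a summit within 2000 bp of any annotated transcript start is described. ChIP-seq recovers DNA bound by a protein and reads its position along the genome. The nuclear hormone receptor NHR-77 was recovered, tagged with enhanced green fluorescent protein (eGFP). The worms were of strain OP353, which combines the unc-119(tm4063) III mutation with the transgene insertion wgIs353, and were harvested whole as L4 larvae with both sexes pooled. The antibody field of the labels gives nhr-77. Both samples, biological replicates 1 and 2, share this genotype and stage, so there is 1 group with n = 2. No untagged sample was analysed here, and recovery through NHR-77 cannot be told apart from other recovery. Whole animals mix all tissues, so the cells that gave a signal are unknown.

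The chaperonin is a pair of stacked rings in which each subunit has a fixed place. Unfolded proteins, above all actin and tubulin, enter the cavity, and hydrolysis of ATP by the subunits closes it and lets the chain fold. Prefoldin carries newly made actin and tubulin to it, and HSP70 also passes on clients. All subunits are needed for one complex. CCT is known as an essential chaperone of the worm's early embryo, where it serves microtubule function.

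Each replicate list and the pooled list held 30000 regions, background included. Signal, the authors' enrichment value per region, has its own scale in each list, so regions were ranked by it within a list, with rank 1 the strongest. The set that passed the authors' threshold on the irreproducible discovery rate held 3457 peaks, called thresholded below. It was the same as the 3457 pooled regions with signal of 46.7 or more. The highest deposited −log10 q in the thresholded set was 3.87. All thresholded peaks near CCT genes had this value, so it does not order those peaks. Regions with a deposited q-value under 0.05 numbered 9386 in replicate 1, 11287 in replicate 2 and 8873 in the pooled list. Depth is unknown.

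Of the 8 CCT genes, 5 had a thresholded peak within 2000 bp of a start, namely cct-1, cct-8, cct-7, cct-6 and cct-5. Over all protein-coding genes this share was 18.4%, 3680 of 19973 (95% Wilson interval 17.9 to 19.0, for counting of genes only). The same 5 genes had the peak within 500 bp, where the share over all genes was 10.3%. All 5 summits lay in intergenic DNA before the gene, between -240 and -440 bp from the start (negative distances are upstream), with a median of -307 bp. The other members were cct-4, with a pooled region below the threshold at rank 4635, and cct-2 and cct-3, with weak regions only. A pooled region of any strength lay within 2000 bp of all 8 members, where 59.6% of all genes had one. No test of the family against other genes was made.

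DNA around the leading summit is shown for the 5 members with a peak and for cct-4, because these upstream stretches can be read against each other. Intronic regions of cct-5 with more signal than the cct-4 region are not shown. Each runs from 50 bases before the summit to 100 bases after it, in the direction of the CCT gene, and no annotated coding exon or untranslated region of a protein-coding gene overlaps it. Sequences are from the RefSeq genome, build WBcel235, which is the ce11 of the deposited regions. Capitals mark a pair of inverted heat shock units, GAANNTTC or TTCNNGAA, where N is any base.
cct-1 (chrII:8185153-8185303, plus strand): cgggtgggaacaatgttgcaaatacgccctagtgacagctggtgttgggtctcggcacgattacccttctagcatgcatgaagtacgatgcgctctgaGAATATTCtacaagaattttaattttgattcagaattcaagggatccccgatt
cct-8 (chrIV:1094260-1094410, minus strand): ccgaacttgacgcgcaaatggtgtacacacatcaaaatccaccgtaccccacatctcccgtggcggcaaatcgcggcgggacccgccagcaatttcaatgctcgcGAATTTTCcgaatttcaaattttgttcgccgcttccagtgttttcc
cct-7 (chrV:1871889-1872039, plus strand): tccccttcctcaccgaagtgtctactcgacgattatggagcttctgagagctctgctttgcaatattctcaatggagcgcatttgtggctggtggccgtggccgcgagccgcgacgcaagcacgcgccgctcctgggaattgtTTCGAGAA
cct-6 (chrIII:5855858-5856008, minus strand): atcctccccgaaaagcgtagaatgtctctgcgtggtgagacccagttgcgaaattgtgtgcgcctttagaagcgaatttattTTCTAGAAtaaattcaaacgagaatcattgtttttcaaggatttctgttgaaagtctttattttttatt
cct-5 (chrIII:4508452-4508602, minus strand): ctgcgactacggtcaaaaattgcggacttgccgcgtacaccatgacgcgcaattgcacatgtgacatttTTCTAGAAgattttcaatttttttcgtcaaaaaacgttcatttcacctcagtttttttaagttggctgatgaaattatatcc
cct-4 (chrII:8283387-8283537, plus strand): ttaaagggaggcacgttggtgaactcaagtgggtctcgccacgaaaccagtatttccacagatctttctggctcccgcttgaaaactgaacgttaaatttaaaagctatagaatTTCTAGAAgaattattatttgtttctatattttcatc

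A heat shock pair, the kind of site that the heat shock factor HSF-1 binds when units are repeated, was present in all 6 stretches. Within 100 bp of the summit it was found for all 7 members that had a pooled region within 500 bp, cct-2 included. A pair was present in 15.5% of the 3457 thresholded summits and in 22.0% of stretches of the same length just before the starts of all 19973 protein-coding genes, called promoters below. Both motifs read the same on either strand and were searched on both. In each of these 7 windows the pair lay on the side of the CCT gene, with its first base between 19 bases (cct-5) and 93 bases (cct-7) after the summit. The word TTCTAGAA was the pair at cct-4, cct-5 and cct-6 and was in 0.81% of thresholded summits and 1.35% of promoters. The word TTCGAGAA was the pair at cct-2 and cct-7 and was in 1.65% and 1.79%. cct-1 held GAATATTC (0.636% and 0.841%) and cct-8 held GAATTTTC (3.21% and 4.91%). These words were picked after the windows had been read. For cct-3, which had no region within 500 bp, a pair began at -22 bp from the start. In the 500 bp before the start all 8 members held a pair, and 48.3% of all genes did. Base composition was not matched in these shares, and a match is a description of letters, not of binding.

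The GATA core TGATAA was in none of the 7 windows (0 of 7), while 41.6% of thresholded summits and 22.8% of promoters held it. Its extended form CTGATAA (17.9% of thresholded summits and 6.03% of promoters) was also in 0 of 7. So were the repeat GAGAGAGA (9.31% and 2.75%), the E-box CACGTG (9.69% and 4.23%) and CCGCCC (7.32% and 6.01%). The nuclear receptor half-site AGGTCA (5.96% and 5.98%) was in 0 of 7 as well. With 7 windows, a count of 0 says little about these motifs, whose shares are low. After the windows had been read, GGTCTC was searched as well. It lay within 20 bases of the summit at cct-1, cct-4 and cct-6, and 10.8% of thresholded summits and 5.34% of promoters held it somewhere in the window. In cct-1 it began 3 bases before the summit.

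**Figure D1:**
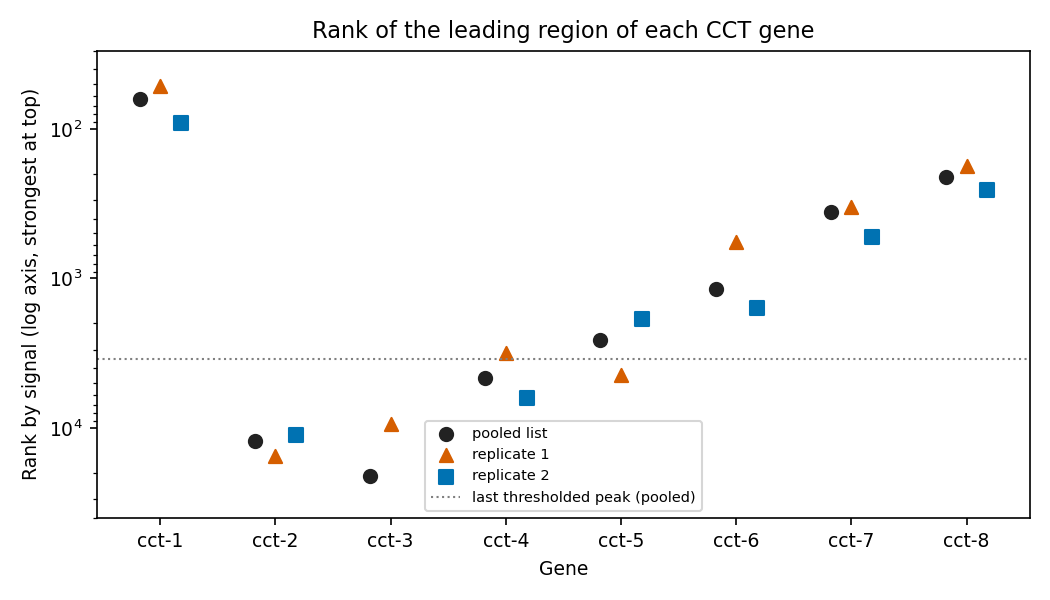
Rank by signal (vertical, log axis, strongest at the top) of the leading region of each CCT gene in the pooled list (circles), replicate 1 (triangles) and replicate 2 (squares); the dotted line is rank 3457. The leading region is the strongest within 500 bp of a start, or for cct-3 the strongest within 2000 bp, at 994 bp after the start in the pooled list, with no region in replicate 2. In both replicates, cct-1, cct-8, cct-7 and cct-6 lie above the line and cct-2 lies below it.

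cct-1 (T05C12.7), the alpha subunit known in mammals as TCP1, had the strongest peak of the family. The gene lies on chromosome II from 8185443 to 8187601 on the plus strand. Its peak, from 8185095 to 8185292, had a pooled signal of 226 and rank 63. Rank was 52 in replicate 1 (signal 90.7) and 91 in replicate 2 (signal 131), so the site was among the 100 strongest in each. Only 43 protein-coding genes, 0.215%, had a stronger pooled region within 500 bp. The summit lay at -240 bp, and at -238 and -259 bp in the replicates. The region was 198 bp wide in the pooled list and 99 bp in replicate 1, below the median widths of 360 and 316 bp.

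cct-8 (Y55F3AR.3), the theta subunit, came next. It lies on chromosome IV from 1087108 to 1093920 on the minus strand. Its peak, from 1094280 to 1094425, had a pooled signal of 148 and rank 210. Rank was 176 in replicate 1 (signal 57.6) and 256 in replicate 2 (signal 93.8), and the summit lay at -440 bp in the pooled list and replicate 2 and at -401 bp in replicate 1. The region was narrow here as well, 146 bp in the pooled list and 95 bp in replicate 2, where the medians were 360 and 364 bp. The second annotated start of cct-8, inside the gene, had only a region of rank 23582 in replicate 1 at 1245 bp after it. Further upstream, regions in an intron of the neighbour Y55F3AR.2 ranked 16465 in the pooled list (at -1863 bp), 6901 in replicate 1 (at -1814 bp) and 29313 in replicate 2 (at -1427 bp). The former 2 also lay within 2000 bp of the start of cox-18, and the noncoding gene Y55F3AR.4 starts within 2000 bp of the peak.

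cct-7 (T10B5.5), the eta subunit, lies on chromosome V from 1872246 to 1875505 on the plus strand. Its peak, from 1871759 to 1872118, had a pooled signal of 124 and rank 358, with ranks of 334 in replicate 1 (signal 46.5) and 531 in replicate 2 (signal 74.4). The summit was at the same base, -307 bp, in all lists. An annotated noncoding RNA gene, T10B5.13, also starts within 2000 bp of the summit. A second region of replicate 2, at -98 bp, was weak at rank 25213, and one of replicate 1 in a coding exon, at 1270 bp, ranked 24870.

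cct-6 (F01F1.8), the zeta subunit, lies on chromosome III from 5853530 to 5855687 on the minus strand. Its peak, from 5855778 to 5856137, had a pooled signal of 80.0 and rank 1176. Rank was 572 in replicate 1 (signal 39.2) and 1572 in replicate 2 (signal 48.2). The summit lay at -271 bp, at -305 bp in replicate 1 and at -261 bp in replicate 2. Outside this region, cct-6 had a replicate 1 region in a coding exon at rank 14043, 852 bp from the start of ddx-23, and a replicate 2 region in an intron of alh-9 at rank 10438, and neither was in the pooled list.

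cct-5 (C07G2.3), the epsilon subunit, had the weakest thresholded peak of the family, and only 1 of its replicates placed it among the 3457 strongest regions. The gene lies on chromosome III from 4499188 to 4508114 on the minus strand. The peak, from 4508372 to 4508731, had a pooled signal of 55.4 and rank 2567. Rank was 1864 in replicate 2 (signal 44.1) but 4434 in replicate 1 (signal 16.0), which is outside the 3457 strongest of that list. Its summits lay at -438, -441 and -424 bp in the pooled list and replicates 1 and 2.

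cct-5 also differed by regions inside the gene. Its body, 8927 bp long, held 8 pooled regions, all with summits in introns, of which 4 had a q-value under 0.05 and 0 were thresholded. The strongest, 3546 bp into the gene, had a signal of 46.5 and rank 3479, 22 places after the last thresholded peak. It ranked 16755 in replicate 1 and 3430 in replicate 2. The next, 5088 bp into the gene, ranked 3580 in the pooled list, 10206 in replicate 1 and 2380 in replicate 2. Another, 1709 bp into the gene, ranked 4088 in the pooled list, 2603 in replicate 1 and 4544 in replicate 2. A further one, 1192 bp into the gene, ranked 5478, 2942 and 6739. In replicate 1 the intronic regions at 1709 and 1192 bp were thus above the upstream region, while in replicate 2 the upstream region was first. The body of cct-3, at 10000 bp the longest of the family, held 4 pooled regions and the strongest ranked 14802. Of the remaining members, cct-7 had 2 and cct-8 had 1, while cct-1, cct-2, cct-4 and cct-6 had 0. No count over all gene bodies is given, so how unusual 8 regions are for a gene of this length was not judged.

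cct-4 (K01C8.10), the delta subunit, lay under the threshold, 1178 ranks after the last thresholded peak. The gene is on chromosome II from 8283667 to 8285711 on the plus strand. Its only pooled region within 2000 bp, from 8283257 to 8283616, had a signal of 37.7, 0.807 of the lowest thresholded value, and rank 4635. Rank was 3150 in replicate 1 (signal 19.3), inside the 3457 strongest, and 6316 in replicate 2 (signal 20.1). The q-value was under 0.05 in all 3 lists. The summit lay at -230 bp, and at -268 and -198 bp in the replicates, 70 bp apart.

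cct-2 (T21B10.7), the beta subunit, on chromosome II from 8927741 to 8929815 on the plus strand, had a weak region in each list at a similar place. Ranks were 12306 in the pooled list (signal 17.9, at -352 bp), 15496 in replicate 1 (signal 8.10, at -390 bp) and 11103 in replicate 2 (signal 12.9, at -323 bp). Only the replicate 2 region had a q-value under 0.05. A second set, at -1625 bp in the pooled list, lay in an intron of the neighbour B0457.2 and ranked 13159, with ranks of 20816 and 21887 in replicates 1 and 2. The noncoding gene VT21B10L.1 also starts within 2000 bp of these summits.

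cct-3 (F54A3.3), the gamma subunit, on chromosome II from 2233540 to 2243539 on the plus strand, was the member with no region within 500 bp of its start in any list. Replicate 2 had no region within 2000 bp either. Pooled regions lay at -814 bp (rank 24165) and in an intron at 994 bp (rank 20943). The intronic region ranked 9466 in replicate 1 (signal 10.7), above the leading region of cct-2 in that list, and a further one there ranked 17107. No region near cct-3 had a q-value under 0.05 in any list.

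**Figure D2:**
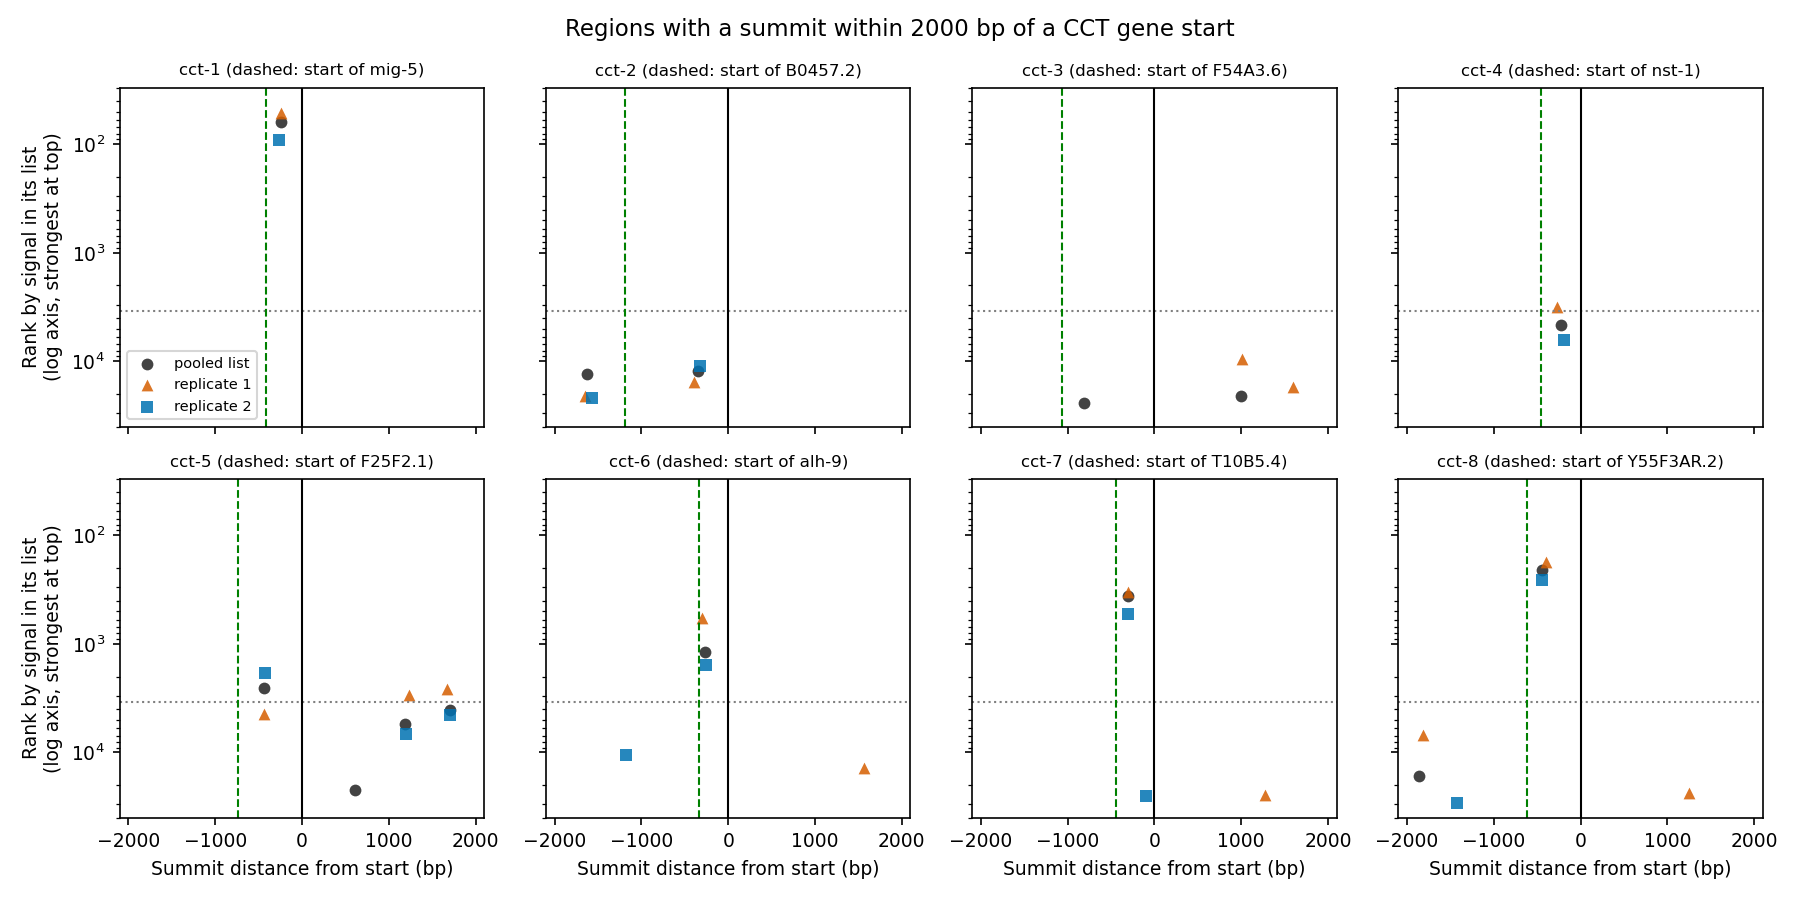
Every region of the pooled list (circles), replicate 1 (triangles) and replicate 2 (squares) with a summit within 2000 bp of a CCT gene start, by distance from the nearest start of that gene (horizontal, bp, positive downstream) and rank by signal in its list (vertical, log axis, strongest at the top). Dashed lines give the start of the neighbouring gene on the other strand, with distances taken from the 5′ end of the gene record, and the dotted line is rank 3457. The high points of cct-1, cct-6, cct-7 and cct-8 stand between both starts, while cct-5 also has points inside the gene.

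In all, 48 regions met the rule over the 4 lists, 5 thresholded, 14 pooled, 16 of replicate 1 and 13 of replicate 2. Of these, 35 were upstream of the nearest start of the member and 13 downstream. The thresholded ones are pooled regions listed again. Sites also recur between the pooled and replicate lists, so these are not counts of separate sites. By list, 10 were upstream and 4 downstream in the pooled list, 9 and 7 in replicate 1, and 11 and 2 in replicate 2. The same split over all genes is not given. The 4 members cct-1, cct-6, cct-7 and cct-8 ranked within the 3457 strongest regions in both replicates, and the order of these 4 by rank was the same in both. The ranks of cct-4 and cct-5 exchanged places between the replicates, so their order is within the spread of the replicates.

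Every CCT gene stood head to head with a protein-coding neighbour, that is, the next gene upstream was transcribed the other way. All 8 had under 2000 bp between the starts, as did 5055 of all 19973 protein-coding genes (25.3%), and 6 had under 1000 bp, as did 3464 of all genes (17.3%). The distance between both starts was 330 bp for cct-6 (neighbour alh-9, an aldehyde dehydrogenase gene), 419 bp for cct-1 (mig-5, a Dishevelled gene of Wnt signalling), 438 bp for cct-7 (T10B5.4) and 458 bp for cct-4 (nst-1, the nucleostemin gene). It was 620 bp for cct-8 (Y55F3AR.2), 740 bp for cct-5 (F25F2.1), 1069 bp for cct-3 (F54A3.6) and 1189 bp for cct-2 (B0457.2). The 6 members with under 1000 bp were thus those with a thresholded peak and cct-4, and the other 2 had only weak regions. Of all 3464 genes placed head to head at under 1000 bp, 21.5% had a thresholded peak within 500 bp (Wilson interval 20.2 to 22.9). Of the 1591 genes at 1000 to under 2000 bp, 9.93% did. This grouping was chosen after the members had been seen. In a gap under 1000 bp, the same summit can lie within 500 bp of both starts and count for both genes. In a wider gap a summit can count for only a single gene of the pair, so these shares are not counted alike. Genes that share a summit are not separate counts, so the interval is too narrow.

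**Figure D3:**
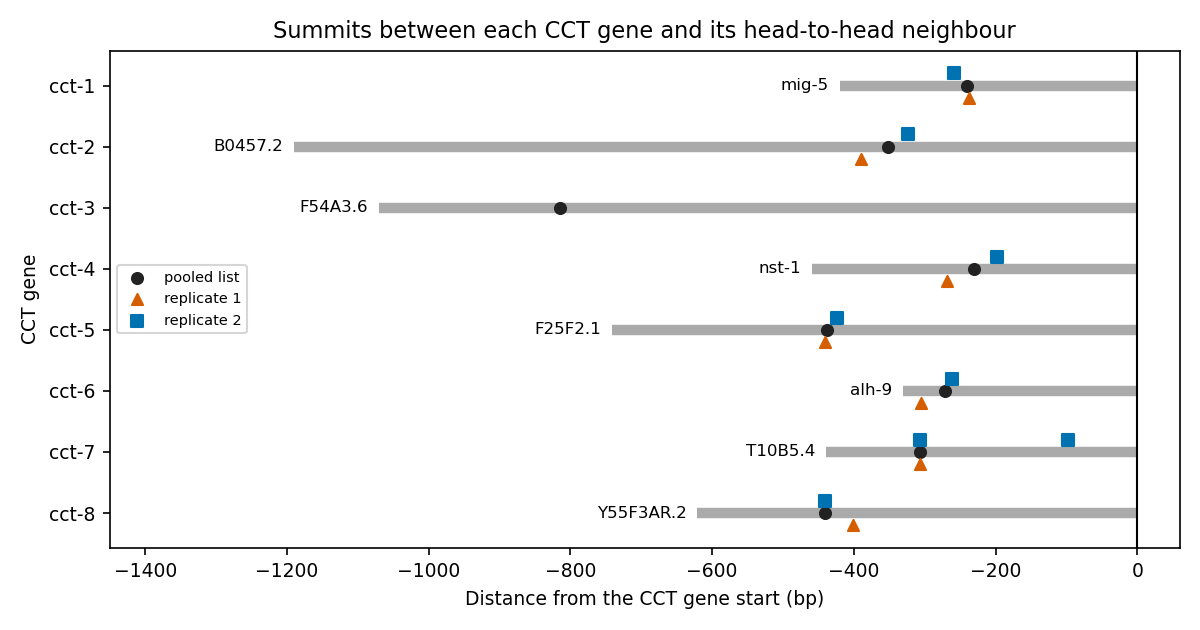
Summits in the pooled list (circles), replicate 1 (triangles) and replicate 2 (squares) between the start of each CCT gene (0, right) and the start of its head-to-head neighbour (left end of the grey bar, named), in bp. The pooled summits of cct-1, cct-3, cct-5, cct-6, cct-7 and cct-8 lie nearer to the neighbour, and that of cct-4 lies at the middle. That of cct-2 lies nearer to cct-2.

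All 5 thresholded summits were nearer to the annotated start of the neighbour than to that of the CCT gene. The summit of cct-6 was 60 bp from the start of alh-9, that of cct-7 132 bp from T10B5.4, that of cct-1 180 bp from mig-5, that of cct-8 181 bp from Y55F3AR.2 and that of cct-5 303 bp from F25F2.1. The difference was 60 bp for cct-1, where the summits of the replicates were 21 bp apart, and it was above the gap between the replicate summits in the other 4 as well. The pooled summit of cct-4 was 229 bp from the start of nst-1 and at -230 bp from that of cct-4, and the nearer gene differed between the replicates. Among the weak pooled regions in the gaps, that of cct-2, at -352 bp, was nearer to cct-2 than to B0457.2 (838 bp). That of cct-3, at -814 bp, was nearer to F54A3.6 (256 bp). If each peak was counted for the nearest start only, 0 of 8 members had a thresholded peak, where 12.3% of all genes did. Whether any of these peaks bears on the CCT gene, on its neighbour or on neither was not tested. Many worm transcripts are trans-spliced, so annotated starts can lie downstream of the true ones.

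The place of these summits within the gap can be set beside that in head-to-head gaps in general. In 1745 head-to-head gaps of under 1000 bp, 362 thresholded summits were found, at a median of 140 bp (quartiles 73 and 206) and 31.2% of the gap from the nearer start. The 5 member summits were at a median of 180 bp and at 18.1% to 42.9% of the gap.

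**Figure D4:**
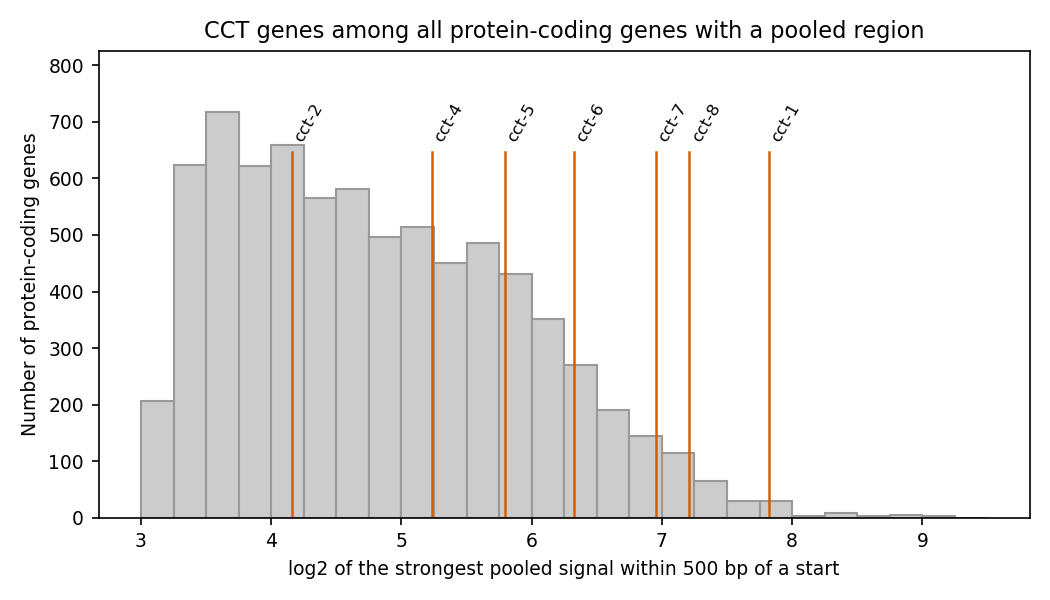
Histogram of the strongest pooled signal (log2, horizontal) within 500 bp of a start for the 7571 protein-coding genes with such a region; the vertical axis is the number of genes and the vertical lines are CCT genes. cct-3 has no such region. cct-1, cct-8, cct-7 and cct-6 lie in the right-hand tail, and cct-2, at signal 17.9, lies below the median of 25.4.

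Measured against all protein-coding genes, the strongest pooled region within 500 bp was exceeded in 0.215% of genes for cct-1, 0.786% for cct-8, 1.40% for cct-7 and 3.95% for cct-6. The figure was 7.87% for cct-5, 13.1% for cct-4 and 24.9% for cct-2. Signal thus spanned a 4.08-fold range among the 5 members with a peak.

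Genes of prefoldin, of actin and tubulin, and of other chaperones, some of them of mitochondria or the endoplasmic reticulum, were counted in the same way. Of 6 prefoldin genes, 2 had a thresholded peak within 2000 bp, pfd-1 (rank 206, -318 bp) and pfd-6 (rank 2406, -84 bp), and both were also within 500 bp. Of 21 actin and tubulin genes, 9 had one within 2000 bp and 6 within 500 bp. They were led by the alpha-tubulin genes tba-1 (rank 55, -1091 bp) and tba-2 (rank 69, -134 bp), the beta-tubulin gene tbb-1 (rank 284, -250 bp) and the actin gene act-5 (rank 786, -224 bp). Of 10 genes of the HSP70, HSP90 and HSP60 classes, 7 had one within 2000 bp and 6 within 500 bp. They included hsp-1, the cytosolic HSP70 (rank 59, -368 bp), hsp-110, its exchange factor (rank 61, -263 bp), hsp-90 (rank 241, -391 bp) and the mitochondrial chaperonin hsp-60 (rank 353, -630 bp). Within 2000 bp these counts stand beside 5 of 8 for CCT and 18.4% of all genes. Within 500 bp they stand beside 5 of 8 and 10.3%. The differences between lists were not tested. The actin genes act-1 to act-4 are near-identical copies, and how reads that map to several places were treated is not stated.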

How the data were processed

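The deposited regions are narrowPeak lists in build ce11. Per the deposited file listings, the authors called peaks and background in each replicate and in both pooled against one shared control, and derived the thresholded set from these 3 lists. No label or header names an aligner, a caller, a threshold or a depth. The deposited signal value (column 7) was used for ranks and for comparing sizes within a list, never between lists, and the deposited −log10 q only at q 0.05. Summits come from the deposited offset. The 4 lists in ce10 were not used. Starts are the 5′ ends of all transcripts of protein-coding genes in Ensembl release 115 (WBcel235), and distances are to the nearest start of the gene. Wilson intervals at 95% cover counting only. The members, lists and motifs were chosen with earlier results of these data known. All 8 members are named, with every gene that starts within 2000 bp of a listed summit, and up to 4 leading members of each comparison list. The gene search was tested on simulated summits. Python 3.11.15, numpy 2.4.6, pandas 2.3.3 and scipy 1.17.1 were used.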

Additional observations from a re-analysis of the deposited data

How the results depend on the processing

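Under single replicates (the 3457 strongest regions of one list), 5 to 6 members had a peak within 2000 bp against 5, and 5 to 5 within 500 bp, but not the same ones. The list of replicate 1 gained cct-4 in both windows, lost cct-5 within 500 bp and kept it within 2000 bp through an intronic region. Over all protein-coding genes, the share with a peak within 500 bp was 9.87% in replicate 1 and 10.1% in replicate 2. A region of any strength was within 2000 bp of 8 members in replicate 1 and of 7 in replicate 2. Over all protein-coding genes these shares were 67.5% and 60.5%. With a window of 250 bp the count fell to 1, cct-1, and with the nearest start only to 0. Thresholded peaks above their median signal gave 4, without cct-5, and pooled regions with q under 0.05 gave 6, with cct-4. The background share of 18.4% ranged from 17.8% to 18.1% under single replicates. It was 10.1% with peaks above the median, 34.9% with q under 0.05, 6.85%, 10.3% and 13.3% with windows of 250, 500 and 1000 bp, 17.6% with the start of the gene record, 12.3% with the nearest start only and 19.2% with any base of the region. Summit distances moved by more than 1 SD of the replicates to -259 bp (cct-1) and -424 bp (cct-5) in replicate 2 and to -305 bp (cct-6) and -401 bp (cct-8) in replicate 1. The SD was taken from the same 2 summits, so this comparison does not measure how stable the positions are. With 2 replicates, no control sample analysed here and unknown depth, the spread could be judged only from the ranks and summit positions of the replicates.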
